A study of Homo sapiens with 4 samples.

Results

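The differentiated HUDEP-2 library made from cells given a DNMT1 inhibitor was compared directly with the library made from cells given an EED inhibitor, CpG by CpG, by whole genome bisulfite sequencing. Every CpG of chromosomes 1 to 22 that both inhibitor tables listed entered the comparison, each covered by at least 10 reads on either side. There were 23468356 such CpGs among the 24844416 listed in any of the 4 libraries of the series. They made up 95.6% of the CpGs listed for either inhibitor and 84.2% of the CpGs of the reference genome, hg38.

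HUDEP-2 is an immortalized line of human erythroid precursors derived from umbilical cord blood, grown with doxycycline, which keeps its immortalizing genes on. It makes mostly adult hemoglobin, and the labels state that cells given either inhibitor expressed more fetal hemoglobin. Both inhibitor cultures, and a DMSO culture used here as the reference for untreated levels, were differentiated for 4 days in a growth stage and 2 days in a maturation stage. Compounds were added from the expansion stage onward at a final 0.1% DMSO, and doxycycline was present throughout. The 4th library came from untreated, non-differentiated cells and is given beside the others where it helps. Compound names and doses are not given in the sources used here. Each condition was a single library of 1 cell line, so no spread between replicates exists, and every test below compares 2 libraries and not 2 treatments.

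DNMT1 is the maintenance methyltransferase: after each round of replication it copies CpG methylation onto the new strand, with UHRF1 bringing it to half-methylated sites, so blocking it dilutes methylation in dividing cells. EED is a core subunit of Polycomb repressive complex 2. It binds the H3K27me3 mark and stimulates the EZH2 enzyme that places it. An EED inhibitor thus acts on a histone mark and not on DNMT1. CpG methylation in mammals is dense over most of the genome and absent from most CpG islands at active promoters, while imprinted and germline gene promoters carry it on a CpG-dense sequence. The globin genes are a classic case, with the fetal HBG1 and HBG2 promoters methylated in adult erythroid cells.

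The following 5 stretches of 250 bases show the kinds of place that the comparison separates. They are reference sequence of hg38, written 5′ to 3′ on the strand of the named gene, with capitals at the CpGs listed in both inhibitor tables. KLF1, an erythroid transcription factor, shows a promoter unmethylated with either inhibitor: its 7 CpGs at chr19:12887495-12887744 (minus strand, 294 to 543 bases upstream of the start, in no annotated gene) were at 0% in both libraries, where counts of 0 allow up to 2.1% and 1.41%, taken here and below as 3 reads of the total. CHRNA10, an acetylcholine receptor subunit, shows a promoter with few CpGs and a large difference: at chr11:3671762-3672011 (minus strand, 378 to 627 bases upstream, inside NUP98 but in no exon) its 6 CpGs were at 10.2% with the DNMT1 inhibitor against 89.8% with the EED inhibitor.
KLF1: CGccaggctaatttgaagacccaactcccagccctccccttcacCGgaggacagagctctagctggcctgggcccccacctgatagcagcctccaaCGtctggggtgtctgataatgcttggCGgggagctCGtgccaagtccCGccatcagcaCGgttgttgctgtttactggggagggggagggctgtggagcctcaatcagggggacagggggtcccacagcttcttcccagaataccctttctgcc
CHRNA10: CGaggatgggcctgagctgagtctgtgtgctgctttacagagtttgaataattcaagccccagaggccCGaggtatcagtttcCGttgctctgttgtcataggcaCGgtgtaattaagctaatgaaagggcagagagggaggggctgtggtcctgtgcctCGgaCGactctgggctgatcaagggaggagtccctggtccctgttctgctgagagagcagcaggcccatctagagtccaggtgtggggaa
SYCP3, a component of the meiotic chromosome axis, and PEG3, a paternally expressed imprinted gene, show CpG-dense promoters that carry methylation. The SYCP3 stretch at chr12:101739470-101739719 (minus strand, 8 to 257 bases upstream, overlapping exons of non-coding CHPT1 and SYCP3 transcripts) had 19 CpGs at 46.4% and 95.1%. In the PEG3 stretch at chr19:56841117-56841366 (minus strand, 391 to 640 bases upstream, overlapping an exon of the non-coding gene MIMT1) 12 CpGs stood at 18.7% and 54.4%. The whole PEG3 promoter, given further below, differed less than this stretch.
SYCP3: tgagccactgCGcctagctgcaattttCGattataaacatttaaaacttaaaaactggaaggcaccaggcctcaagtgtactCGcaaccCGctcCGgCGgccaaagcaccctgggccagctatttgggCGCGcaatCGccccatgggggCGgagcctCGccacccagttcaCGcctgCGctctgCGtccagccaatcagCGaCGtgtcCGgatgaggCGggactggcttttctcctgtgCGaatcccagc
PEG3: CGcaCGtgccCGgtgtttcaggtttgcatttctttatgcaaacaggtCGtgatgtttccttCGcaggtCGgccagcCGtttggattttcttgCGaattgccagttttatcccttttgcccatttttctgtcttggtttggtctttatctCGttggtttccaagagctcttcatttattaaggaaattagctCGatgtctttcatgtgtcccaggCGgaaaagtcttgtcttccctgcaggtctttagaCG
The last comes from a strongly methylated 1 kb window where the libraries were closer, inside the gene for the integrin subunit ITGB1. The stretch at chr10:32968319-32968568 (minus strand, intron) had 8 CpGs at 79.3% and 91.2%, of which 7 form an unbroken run of CG.
ITGB1 window: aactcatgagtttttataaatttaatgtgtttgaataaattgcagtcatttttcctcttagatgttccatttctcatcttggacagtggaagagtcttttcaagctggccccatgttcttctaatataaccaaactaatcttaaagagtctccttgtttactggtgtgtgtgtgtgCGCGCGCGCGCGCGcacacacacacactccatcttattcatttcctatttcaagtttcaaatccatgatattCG
Within the ITGB1 stretch the 7 CpGs of the run ranged from 69.4% to 97.3% with the DNMT1 inhibitor and from 81.5% to 96.3% with the EED inhibitor. The remaining CpG, at position 249 at the end of the same stretch, was at 20.5% and 93.1%. In SYCP3 single CpGs ranged from 8.70% to 84.2% with the DNMT1 inhibitor, and in all 19 the EED inhibitor library was higher.

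Across all shared CpGs the DNMT1 inhibitor library was at 16.84% methylation (95% Wilson interval 16.837% to 16.842%) and the EED inhibitor library at 59.24% (59.241% to 59.248%), a difference of -42.4 percentage points. The level with the DNMT1 inhibitor was thus 28.4% of that with the EED inhibitor, a ratio called the relative level below. The DMSO library stood at 60.3% and the non-differentiated library at 61.7% over these CpGs, so the EED inhibitor library lay -1.07 points from DMSO. These intervals cover counting error only and treat each CpG of each read as a separate count. A read that spans several CpGs is counted at each, and reads that carry no molecular identifier may copy 1 molecule. The intervals here and below may therefore be too narrow. Mean coverage over each table's own autosomal CpGs was 29.4 reads with the DNMT1 inhibitor against 30.2 with the EED inhibitor.

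Each autosome showed the difference. It ran from -38.96 points on chromosome 18 to -47.8 points on chromosome 17, and the relative level from 26.1% on chromosome 11 to 31.4% on chromosome 21. Coverage of chromosome 18 was higher in the DNMT1 inhibitor library than in the EED inhibitor library, by 0.36 on the log2 scale after division by total coverage. On chromosome 10 beyond 100 Mb it was lower, with a log2 ratio of -0.28. The other autosomes lay between -0.04 and 0.03, apart from chromosome 10 as a whole at -0.09. Without these segments the overall difference was -42.5 points.

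CpGs of the 2 libraries fell into few combinations. Both levels were at or under 20% at 22.9% of CpGs. A level at or under 20% with the DNMT1 inhibitor and at or over 80% with the EED inhibitor was found at 17.1%, and an intermediate level against 80% or more at 29.4%. A further 25.2% were at or under 20% with the DNMT1 inhibitor and intermediate with the EED inhibitor. Only 71043 CpGs (0.303%) were at or over 80% in both libraries, and none of the 23468356 was at or over 80% with the DNMT1 inhibitor and at or under 20% with the EED inhibitor.

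A two-sided Fisher's exact test of methylated and unmethylated reads was run at every CpG, with Benjamini-Hochberg adjustment over all of them. A CpG was called different if its adjusted p was under 0.01 and its levels differed by 25 points or more. By this rule 14637494 CpGs were lower with the DNMT1 inhibitor, 62.4% of those tested, and 41 were higher (0.000175%). The median CpG differed by -48.0 points. The 41 higher CpGs had unadjusted Fisher p-values no smaller than 0.00036, while the largest unadjusted p among all calls was 0.00631. At 26 of the 41 the EED inhibitor level was at or under 10%, and 40 of the 41 were listed in DMSO. DMSO was above the EED inhibitor level at all 40, and at 17 of the 40 the DNMT1 inhibitor level was within 10 points of DMSO. The 41 were picked for an EED inhibitor level well under the DNMT1 inhibitor level. This choice by itself favours DMSO values above the EED inhibitor level, so the counts beside DMSO only describe these CpGs. They were scattered over the genome, 1 of them 3811 bases from SOX9 and 1 in the body of FHIT, both chosen after the values were seen.

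Reads were then summed over windows of 1 kb that held 3 or more shared CpGs. Of 2367178 windows, 1865389 were called lower with the DNMT1 inhibitor by the same Fisher's exact test and rule (78.8%) and 0 were called higher (0%). In 13 windows the DNMT1 inhibitor level was higher at an adjusted p under 0.01, all with differences under 25 points. The window levels of the 2 inhibitor libraries had a Pearson correlation of 0.80 across these 2367178 windows, beside 0.98 between the EED inhibitor and DMSO libraries. Windows are not independent replicates and share base composition and library, so no p is given. In the plot of window levels, higher EED inhibitor levels went with higher DNMT1 inhibitor levels, on a smaller scale.

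**Figure D1:**
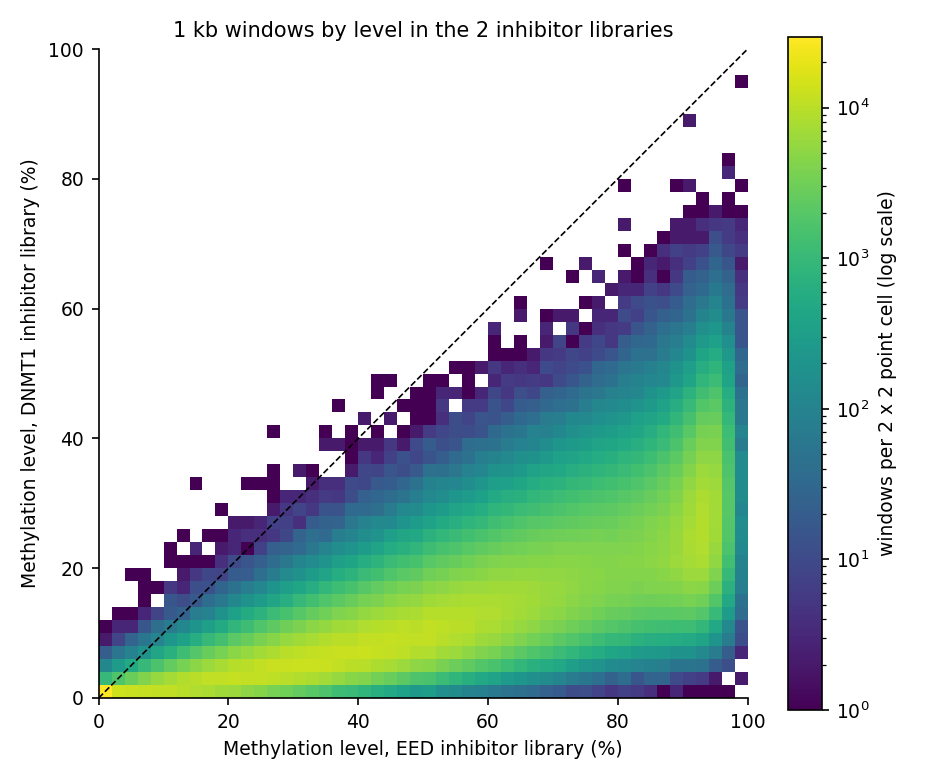
Methylation level of each 1 kb window in the EED inhibitor library (x axis, %) and in the DNMT1 inhibitor library (y axis, %), as the number of the 2367178 windows per cell on a log colour scale, with the line of equal levels dashed. Nearly all windows lie under the line and 7971 lie above it. Windows at 80% or more in DMSO, at the right of the plot, had their 5th and 95th percentiles on the y axis at 13.5% and 42.9%.

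In percentage points the libraries were alike mainly where there was little methylation. A window under 10% with the EED inhibitor cannot be 10 points lower with the DNMT1 inhibitor, so this limit favours such windows. Levels differed by less than 10 points in 134546 windows (5.68%), and 98.1% of these had both levels at or under 20%. Only 3 had both at or over 80%. When windows were classed by their level in DMSO, a library outside the comparison, 58.3% of the 188466 windows under 20% in DMSO were alike, with medians of 1.57% for the DNMT1 inhibitor and 10.7% for the EED inhibitor. Alike windows made up 3.40% of those at 20 to 40% in DMSO. At 80% or more in DMSO 8 of 527737 windows were alike and 99.96% were called lower, with medians of 25.9% and 90.7%. As a ratio the 2 medians lay further apart under 20% in DMSO than at 80% or more.

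Even in strongly methylated windows the DNMT1 inhibitor library kept a graded pattern. Among 453854 windows at 80% or more in DMSO with at least 5 shared CpGs the relative level had a median of 29.6%, with 5% of windows below 16.4% and 5% above 47.2%. It exceeded 75% in 33 windows. By DMSO class the median level with the DNMT1 inhibitor climbed from 5.56% at 20 to 40% in DMSO to 10.5% at 40 to 60% and 17.2% at 60 to 80%. The EED inhibitor medians in these classes were 30.0%, 48.8% and 68.2%.

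Over domains of 100 kb every one of 26982 bins was lower with the DNMT1 inhibitor, by -11.8 to -70.8 points, and the levels of the libraries had a Pearson correlation of 0.91 across the bins. The largest difference was in a bin at chr1:19100001-19200000, within UBR4, a ubiquitin ligase gene, at 19.8% against 90.5%. The next were bins at CDK5RAP2, a centrosome gene (21.9% against 92.4%), and UGGT1, which checks glycoprotein folding (22.7% against 92.1%). Domains at 40 to 50% in DMSO stood at 10.7% with the DNMT1 inhibitor against 43.6% with the EED inhibitor, a relative level of 24.6%. Domains at 80% or more in DMSO stood at 26.5% and 84.8%, a relative level of 31.2%. The order was not even, since domains under 40% in DMSO had a relative level of 28.1%. Over strongly methylated CpGs alone the domains under 40% had the highest relative level of the 6 classes, at 33.4%. It was 32.2% in domains at 80% or more and 29.1% at 40 to 50%, with overlapping ranges over autosomes. At these CpGs the DNMT1 inhibitor level was 28.2% in domains under 40% and 30.0% in domains at 80% or more. The EED inhibitor levels there were 84.4% and 93.0%.

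Named windows were limited to those with at least 10 shared CpGs and a mean of at most 100 reads per CpG. Within these limits, windows in the bodies of RAB3IL1, GALNT7, PBRM1 and DCTN2 were among those with the largest differences. Over all windows tested the lowest difference was -96.4 points. The RAB3IL1 window at chr11:61905001-61906000 had 11 shared CpGs and stood at 6.97% with the DNMT1 inhibitor against 95.1% with the EED inhibitor, a difference of -88.1 points (95% Newcombe interval -91.7 to -82.0). The other 3 differed by -87.7 to -87.5 points. In DMSO these 4 windows were at 92.2% to 96.1%. RAB3IL1 encodes an exchange factor for Rab GTPases, GALNT7 takes part in O-linked glycosylation, PBRM1 is a chromatin remodelling subunit and DCTN2 is a part of dynactin.

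At the other extreme, among windows at 80% or more in DMSO with at least 10 shared CpGs, the smallest difference was at chr10:32968001-32969000 in ITGB1. It stood at 75% with the DNMT1 inhibitor against 92.3% with the EED inhibitor, a difference of -17.3 points (-22.8 to -11.5), and holds the run of CG printed above. The next was at chr4:177193001-177194000 in a non-coding transcript, where the nearest protein-coding gene is NEIL3, with 57.3% against 76.5%, although DMSO was at 86.0%. A window in ATG7, an autophagy gene, at chr3:11488001-11489000 overlapping a pseudogene stood at 71.3% and 92.0% over 26 CpGs. Mean coverage of these 10 most alike windows with the DNMT1 inhibitor ran from 10.5 to 34.0 reads per CpG. They were chosen for their small difference, so their values are a description.

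Features of the sequence around strongly methylated CpGs were then set beside the levels, over the 10761798 shared CpGs at 80% or more in DMSO. As a whole they stood at 28.2% and 90.4%, a relative level of 31.2%. By chromosome it ran from 28.9% to 33.8%. The range over autosomes is given below beside each class value and is no replicate error.

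The relative level followed CpG spacing. CpGs with 1 to 2 CpGs within 250 bases on either side, the site itself included, had a relative level of 24.7% (23.1% to 28.4% over the autosomes). It was 27.0% with 3 to 5, 30.3% with 6 to 10 and 34.9% with 11 to 20. The densest classes were at 42.1% with 21 to 40 and 58.5% (53.8% to 65.1%) with 41 or more. Between the sparsest and the densest class the EED inhibitor level went from 88.5% to 92.9% and the DNMT1 inhibitor level from 21.9% to 54.4%. Coverage with the DNMT1 inhibitor also moved, from 34.2 reads per CpG in the sparsest class to 20 in the densest. With at least 20 reads required in both libraries, the densest and sparsest classes were at 58.9% and 24.7%.

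The distance to the nearest CpG gave the same kind of order. With a neighbour 2 bases away, that is in CGCG, the relative level was 48.3% (44.4% to 51.7%), and it was 38.5% at 3 to 5 bases. It was 36.4% at 6 to 10 bases, 31.1% at 11 to 20 and 25.7% at 21 to 50. Beyond that it was flat, between 24% and 25.4%. The ranges over autosomes of the classes at 2 bases and at 3 to 5 bases did not overlap, whereas those of the 3 classes beyond 50 bases did.

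**Figure D2:**
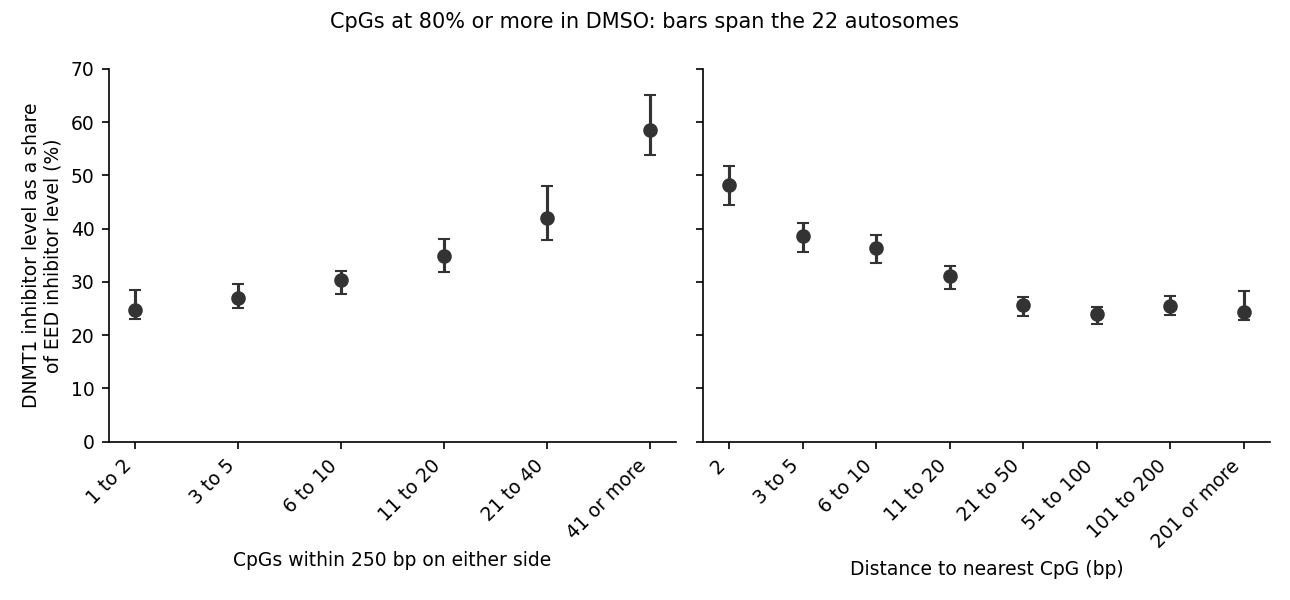
Relative level (DNMT1 inhibitor level as a percentage of EED inhibitor level, y axis) of CpGs at 80% or more in DMSO, by the number of CpGs within 250 bp (left) and by the distance to the nearest CpG in bp (right). Points are all autosomes together and bars span the lowest and highest of the 22 autosomes; the points climb from 24.7% to 58.5% on the left and fall from 48.3% to about 24% on the right.

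CpG islands, found as stretches of at least 500 bases with a GC share of at least 0.55 and an observed to expected CpG ratio of at least 0.65, had a relative level of 45.4% at their methylated CpGs (41.1% to 51.8% over the autosomes). CpGs within 2 kb of an island were at 30.6% and those elsewhere at 30.9%. The gene annotation separated the CpGs much less. Relative levels were 30.0% in promoters, 30.7% in exons, 30.9% in introns and 31.8% between genes.

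The relative level also differed with the bases next to the CpG. Among CpGs grouped by 1 base on either side, with reverse complements merged, ACGT had the lowest relative level at 23.7% and ACGA followed at 25.1%. TCGA was at 27.4%, while CCGC was at 36.5% and GCGC highest at 38.0%. Because C and G neighbours can themselves form a nearby CpG, the groups were repeated over 1029560 lone CpGs with no other CpG within 100 bases. There ACGA was at 20.5%, ACGT at 20.7% (19.1% to 22.8% over the autosomes), CCGC at 29.9% and GCGC at 32.1% (29.7% to 36.4%). The ranges of ACGT and GCGC did not overlap.

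With 2 bases on either side the spread among lone CpGs widened. AACGTT was lowest with a relative level of 14.2%, from 12.3% with the DNMT1 inhibitor against 86.5% with the EED inhibitor over 5214 CpGs. AACGTC followed at 15.5%. TGCGCA was highest at 40.7%, from 37.2% and 91.4% over 7393 CpGs, and AGCGCA followed at 35.3%. EED inhibitor levels of these 4 contexts lay between 86.5% and 91.4%. The contexts with the highest values among all strongly methylated CpGs, CGCGCG at 62.3% and ACCGCG at 56.2%, hold more than 1 CpG.

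**Figure D3:**
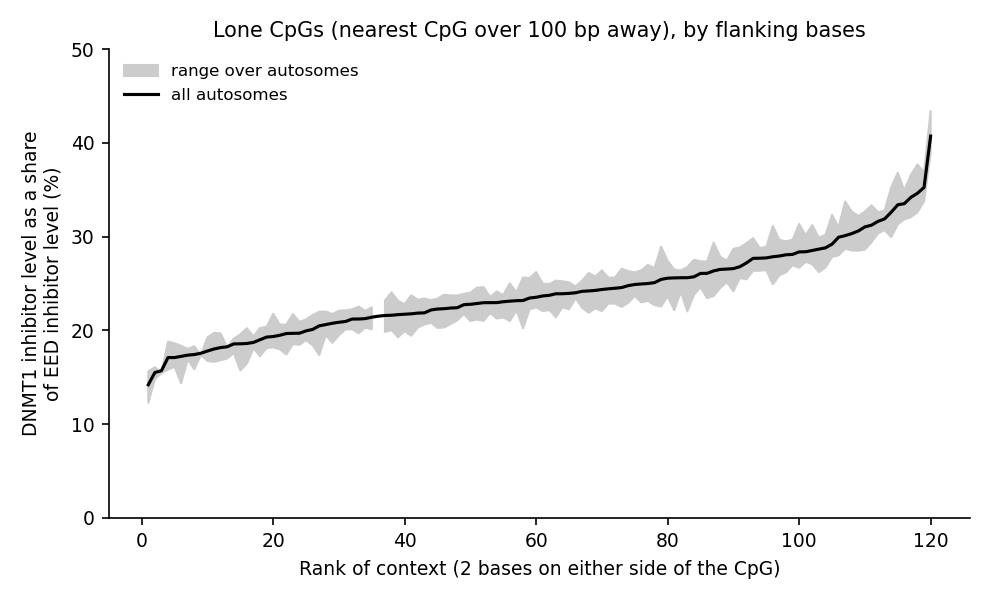
Relative level (y axis, %) of lone CpGs at 80% or more in DMSO for the 120 contexts of 2 bases on either side, ranked from lowest to highest (x axis). The line is all autosomes together and the band spans autosomes with at least 200 CpGs of the context, with a gap where none had as many; values run from 14.2% to 40.7%.

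CpGs at or over 80% in both libraries are a set defined by both readouts and so only described. Of the 71043, 39.3% had a neighbour 2 bases away and 23.4% lay in islands. Among CpGs at or over 80% with the EED inhibitor and at or under 20% with the DNMT1 inhibitor these shares were 1.52% and 1.45%. The first set also had lower coverage, with 20.7% of its CpGs under 15 reads with the DNMT1 inhibitor against 5.52% in the second, and the part this plays was not tested.

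Around the starts of protein-coding genes both libraries dipped. In the 100 bases from 200 to 101 upstream the DNMT1 inhibitor library was at 3.38% and the EED inhibitor library at 10.8%, the smallest levels of the profile. At 5 kb upstream they were at 18.9% and 68.9%, and at 5 kb downstream at 20.4% and 73.0%. The relative level was 34.5% in the last 100 bases before the start and 23.9% at 1 kb downstream.

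**Figure D4:**
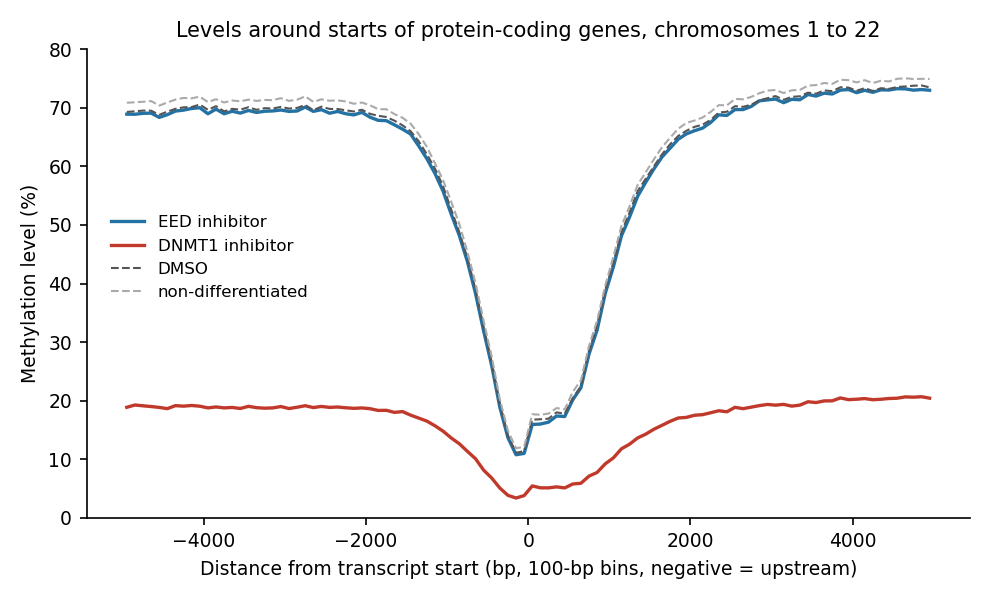
Methylation level (y axis, %) in 100 bp bins from 5 kb upstream to 5 kb downstream of the starts of protein-coding genes (x axis, bp) in the 4 libraries. The EED inhibitor line runs with DMSO, at 68.9% and 69.3% in the first bin, and the DNMT1 inhibitor line lies under both, at 18.9%.

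Promoters, taken from 1000 bases upstream to 500 bases downstream of the start, were tested where at least 5 CpGs were shared. Only 48.9% of the reference CpGs of tested promoters were shared, so a level covers part of a promoter, as at KCNJ12 (17 of 113 CpGs), NFIX (41 of 163) and BCL11A (30 of 118). Fisher's exact test on summed reads called 7317 of 17847 lower with the DNMT1 inhibitor (41%) and 0 higher (0%), with a median difference of -19.4 points. Taken as 250 bases on either side of the start, 2662 of 12452 were called, and 2963 when each read total was divided by the CpG count, out of 17847. In 4 promoters the DNMT1 inhibitor level was higher at an adjusted p under 0.01, by at most 2.43 points. Levels differed by less than 10 points at 5849 promoters. Of 4854 promoters under 20% in DMSO 9 were called, and of those at 80% or more all 819 were. A call needs 25 points, so the rule leaves little room for calls under 20%. Median levels with the DNMT1 and EED inhibitors were 0.85% and 5.96% in that class, and 24.8% and 87.5% at 80% or more.

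Promoters named for extreme differences were limited to at least 10 shared CpGs and a mean of at most 100 reads per CpG. Within these limits, those of CHRNA10, FAM83E and KCNJ12 were among the largest differences. Over all promoters tested the lowest difference was -84.9 points. CHRNA10 at chr11:3670884-3672384 stood at 12.7% with the DNMT1 inhibitor against 92.3% with the EED inhibitor, a difference of -79.6 points (95% Newcombe interval -83.8 to -74.1). FAM83E at chr19:48614576-48616076 stood at 8.16% and 87.0%, and KCNJ12, a potassium channel gene, at chr17:21375357-21376857 at 10.2% and 88.6%. In DMSO these 3 promoters were at 93.7%, 83.4% and 88.5%.

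Of the 8 promoters that were most alike despite 60% or more in DMSO, 6 belong to the list of imprinted genes, which are expressed from 1 parental copy and carry methylation on the other. The 6 include pairs of genes with the same start, so they are not 6 separate promoters. Of all 2528 promoters at 60% or more in DMSO, 13 are on that list. The 8 were chosen for a high DMSO level and a small difference, which favours low EED inhibitor levels, so their values are a description. Over the 33 imprinted promoters tested, the EED inhibitor minus DMSO difference had a median of 0.70 points. SNRPN and SNURF, which share a start at chr15:24953987-24955487, stood at 30.0% with the DNMT1 inhibitor (95% Wilson interval 27.4% to 32.8%) and 45.1% with the EED inhibitor (42.0% to 48.2%). DMSO was at 60.2% there, and the EED inhibitor level lay -15.1 points from it, a difference that was not tested. MAGEL2 in the same region at chr15:23647367-23648867 stood at 28.1% and 47.5%, with 60.1% in DMSO. At ZNF331, an imprinted zinc finger gene at chr19:53537145-53538645, all 113 CpGs of the promoter were shared. It stood at 42.6% (40.6% to 44.5%) and 64.1% (62.3% to 65.8%), with 62.9% in DMSO. PEG3 and ZIM2 share a start at chr19:56840226-56841726 and stood at 38.6% and 61.6%, with 62.1% in DMSO. By Fisher's exact test each of these was lower, with adjusted p-values from 1.05e-09 at MAGEL2 to 2.77e-55 at ZNF331, but with differences under 25 points. With read totals divided by the CpG count none of them passed, with Fisher adjusted p-values from 0.289 at ZNF331 to 0.545 at SNRPN and SNURF. Over 250 bases on either side of the start MAGEL2 differed by -29.2 points and was called, while SNRPN and SNURF differed by -7.48 points (Fisher adjusted p 0.0166).

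Fetal and embryonic globin promoters differed by more percentage points than the adult ones, but not by relative level, which was 29.7% at HBG1, 27.9% at HBG2 and 20.7% at HBE1 beside 11.6% at HBB and 21.4% at HBD. The fetal HBG1 promoter at chr11:5249357-5250857 stood at 28.3% (22.7% to 34.7%) with the DNMT1 inhibitor, 95.4% (92.0% to 97.4%) with the EED inhibitor and 95.8% in DMSO. The DMSO library listed too few of the shared CpGs of HBG1 to enter the classes set with DMSO, so its level there rests on fewer CpGs. HBG2 at chr11:5254281-5255781 was at 22.7% (18.5% to 27.5%), 81.4% (76.5% to 85.4%) and 80.2%. Both were called lower by Fisher's exact test, with adjusted p-values of 7.36e-55 and 6.52e-51, and neither pair of intervals overlapped. The 2 genes are near copies of each other, so their reads can be hard to place, which was not tested. In these promoters 7 and 8 of the 14 CpGs were listed in both tables, near the 48.9% over all tested promoters. The embryonic HBE1 promoter stood at 17.8% and 86.4%, and embryonic HBZ and the minor alpha-type HBQ1 at 14.2% and 62.7%, and 12.7% and 49.2%. Within 250 bases of the start HBZ and HBQ1 differed by -0.14 and -6.57 points and were not called. When read totals were divided by the CpG count of the promoter, which guards against counting a read once for each CpG it covers, these 2 were not called either, with Fisher adjusted p-values of 0.0116 and 0.0313. Within 250 bases 0 of the 4 globin promoters tested (HBZ, HBM, HBA1 and HBQ1) were called, beside 21.4% of all promoters. HBG1, HBG2, HBE1, HBB and HBD had too few shared CpGs there to be tested.

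Adult globin promoters held less methylation with either inhibitor. HBB at chr11:5226571-5228071 stood at 2.49% (1.21% to 5.05%) with the DNMT1 inhibitor and 21.5% (17.3% to 26.4%) with the EED inhibitor, with 15.2% in DMSO. HBD was at 6.62% and 30.9%, HBA1 at 0.22% and 0.82%, and HBM at 0.40% and 2.98%. None of these 4 passed the call rule. In all, 5 of 9 globin promoters tested were called lower (55.6%, beside 41% of all promoters), with a median difference of -36.5 points beside -19.4 over all promoters. HBA2 had 2 shared CpGs and was not tested.

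Promoters of fetal hemoglobin regulators varied widely. Of 25 tested, 7 were called lower (28%, beside 41% of all promoters), with a median difference of -16.0 points. Both levels were under 20% at 13 of them (52%, beside 42.8% of all promoters). BCL11A, the main repressor of the fetal globin genes, was at 0.25% with the DNMT1 inhibitor against 0.24% with the EED inhibitor, a difference of 0.012 points (-1.10 to 1.17) at chr2:60553154-60554654. KLF1, which activates BCL11A, was at 0.31% and 0.54%, and MYB, a progenitor transcription factor, at 0.12% and 0.42%. The called promoters were those of SOX6 (30.2% and 91.0%), WIZ (14.0% and 79.9%), BACH1 (19.1% and 69.4%), HIC2 (15.8% and 65.1%), SPOP (12.3% and 51.6%), POGZ (15.2% and 51.5%) and NFIX (6.67% and 42.4%). SOX6 and HIC2 are transcription factors, HIC2 a repressor of BCL11A, and BACH1 is a heme-regulated repressor. Within 250 bases of the start NFIX, POGZ and SPOP were at differences of 0.26, 0.00 and 0.00 points, and were not called. SOX6, WIZ, BACH1 and HIC2 had too few CpGs there to be tested. In all, 0 of 18 regulators tested were called within 250 bases (0%, beside 21.4% of all promoters). POGZ and SPOP were also not called with read totals divided by the CpG count (Fisher adjusted p 0.0372 and 0.042). The list then held 5 calls of 25 (20%), beside 16.6% of all promoters, so its place relative to the background turned. It turned as well with promoters reaching 2000 bases upstream, with 18 calls of 27 (66.7%, beside 61.1%). Over CpGs with at least 20 reads in both libraries 4 promoters entered the calls, those of ZNF644 (-27.2 points, from -20.9), NR2C1 (-36.8, from -21.4), MBD2 (-36.3, from -18.1) and GATAD2A (-25.9, from -19.5). The list then gave 10 calls of 21 (47.6%), beside 50.5% of all promoters. ZNF644 was also called over CpGs listed in all 4 tables. WIZ and HIC2 rested on 6 shared CpGs each.

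Among genes of the DNA methylation machinery 5 of 17 tested promoters were called lower (29.4%, beside 41% of all promoters), with a median difference of -12.0 points. UHRF1, the partner that brings DNMT1 to new DNA, stood at 7.75% with the DNMT1 inhibitor against 48.9% with the EED inhibitor, with 66.0% in DMSO. At UHRF1 the DMSO library listed too few of the shared CpGs to enter the classes set with DMSO. Its level there rests on fewer CpGs and cannot be compared directly with the inhibitor levels. DNMT3B, a de novo methyltransferase, was at 7.75% and 73.3% on 5 shared CpGs. The methyl-CpG binding repressors ZBTB38 and ZBTB4 were at 23.8% and 80.9%, and 12.5% and 50.1%. USP7, a deubiquitinase that acts on UHRF1, was at 5.2% and 32.5%. DNMT1 itself was at 5.45% and 17.4% and not called, TET2 at 1.5% and 12.5%, and TET3 at 0% on both sides, where 177 and 178 reads allow up to 1.69% each. Within 250 bases of the start UHRF1 differed by -1.06 points and was not called, while ZBTB38 was still called at -51.4 points. DNMT3B, ZBTB4 and USP7 had too few CpGs there, and the list gave 1 call of 12 (8.33%, beside 21.4% of all promoters). After dividing read totals by the CpG count only DNMT3B of the 5 called promoters was still called. That is 5.88% of the list, beside 16.6% of all promoters. With at least 20 reads in both libraries 5 of 12 were called (41.7%, beside 50.5% of all promoters): TET1 (-26.8 points, from -17.2) and MBD2 entered, promoter UHRF1 stood at -80.1 points, and DNMT3B and ZBTB38 had too few CpGs to be tested. With promoters reaching 2000 bases upstream 14 of 18 were called (77.8%, beside 61.1%), so the list's place against the background turned.

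Polycomb gene promoters, including the target of the other inhibitor, gave 8 calls among 22 tested (36.4%, close to the 41% of all promoters), with a median difference of -15.2 points. EED stood at 0% of 1034 reads with the DNMT1 inhibitor, which allow up to 0.29%, and 1.18% with the EED inhibitor, and EZH2 at 0.15% and 0.55%. The cofactor AEBP2 had the largest difference, with 12.3% against 82.3%, and EZH1, the EZH2 paralogue, was at 21.9% and 64.2%. Called as well were RNF2 and PCGF3, of Polycomb repressive complex 1 (15.5% and 52.2%, 18.1% and 57.5%), CBX2 (9.47% and 47.9%), KDM2B (4.38% and 34.7%), SUZ12 (2.42% and 28.5%) and PCGF6 (19.4% and 45%). With read totals divided by the CpG count, AEBP2 was the only 1 of these 8 still called. That is 4.55% of the list, beside 16.6% of all promoters. The list was also under all promoters at 40 points (9.09%, beside 21.7%) and reaching 2000 bases upstream (50%, beside 61.1%). Within 250 bases it gave 1 call of 10 (10%, beside 21.4%). Within 250 bases of the start EZH1 differed by -6.25 points, and SUZ12 and PCGF6 by 0.31 and 0.03, while KDM2B was still called at -40.2 points. The other 4 had too few CpGs there. PCGF5 was called with at least 20 reads in both libraries (-25.3 points, from -16.9), where promoter SUZ12 stood at -48.6 points and the list gave 8 of 15 (53.3%, beside 50.5%), and KDM6B over CpGs listed in all 4 tables (-25.8 points, from -15.6).

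**Figure D5:**
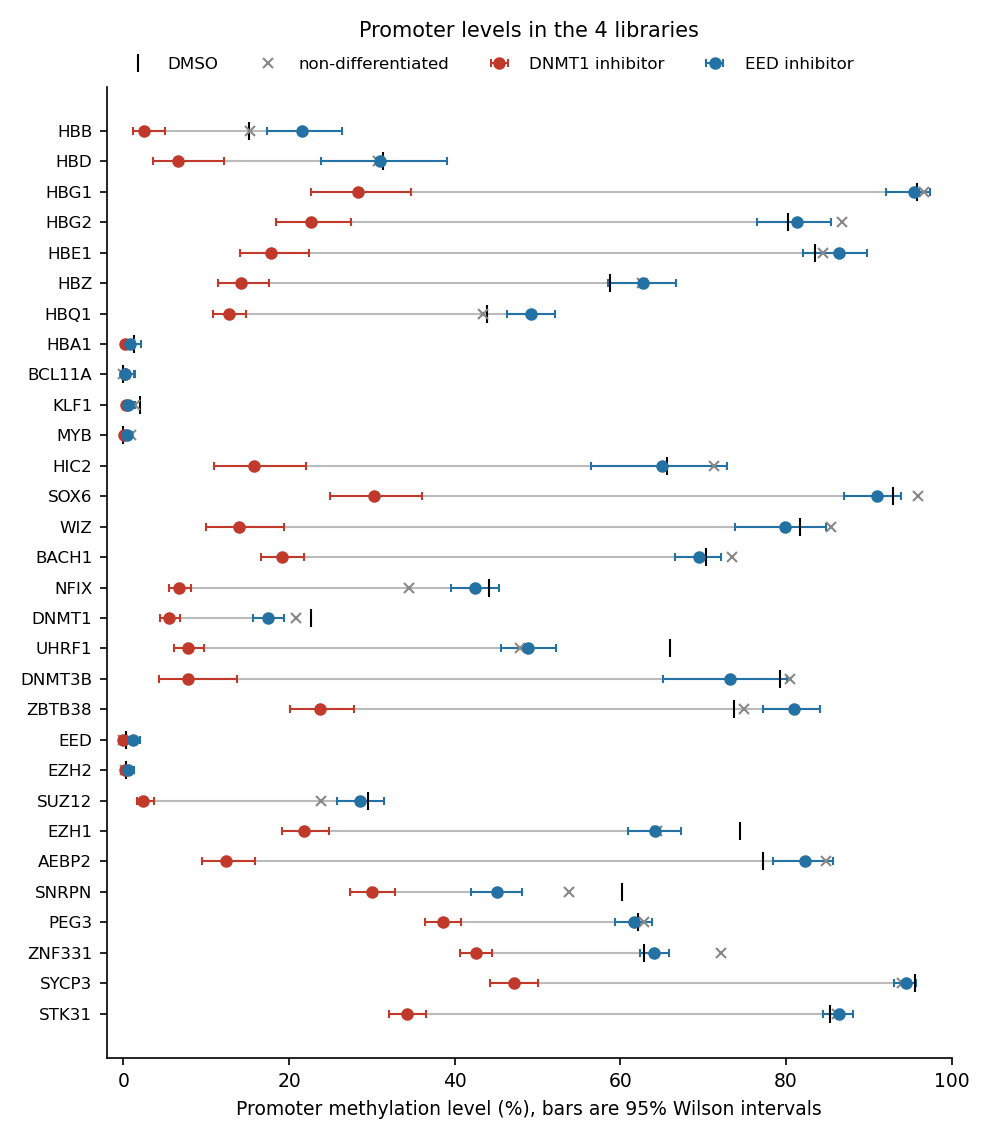
Methylation level (x axis, %) of 30 promoters in the DNMT1 inhibitor (red) and EED inhibitor (blue) libraries, with 95% Wilson intervals for counting error as bars and the DMSO and non-differentiated levels as ticks and crosses. HBG1, SOX6 and SYCP3 show long gaps, BCL11A, KLF1 and MYB sit near 0% in all libraries, and SNRPN, PEG3 and ZNF331 show short gaps.

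Other gene groups ranged widely in the share called. Of 36 promoters of genes that mark other blood lineages 29 were called lower (80.6%, beside 41% of all promoters), with a median difference of -41.2 points beside -19.4. FCGR3A, an Fc receptor of NK cells, stood at 25.1% and 85.7%, while CEBPA and PAX5 were at 0.39% and 4.75%, and 0.92% and 10.7%. Of 34 erythroid gene promoters 14 were called (median -12.7 points), a share of 41.2% that was near the 41% of all promoters. Within 250 bases of the start 2 of 25 were called (8%, beside 21.4%). SLC4A1, the band 3 anion exchanger, stood at 7.61% and 69.4%, and RHCE, a blood group gene, at 7.31% and 59.8%. Within 250 bases of its start SLC4A1 differed by -24.2 points, just short of the call.

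The counts that follow stand beside 41% called and a median of -19.4 points over all promoters. Olfactory receptor genes gave 229 calls among 304 tested (75.3%, median -35.2 points), with OR52A1 at 23.2% and 94.4%. Developmental regulators gave 16 among 101 (15.8%, median -9.95 points), and 64 had both levels under 20% (63.4%, beside 42.8% of all promoters). Clustered protocadherins gave 3 among 53 (5.66%, median -17.4 points), interferon-related genes 22 among 38 (57.9%, median -27.2 points), tumour suppressors 8 among 30 (26.7%, median -13.8 points) and zinc finger genes of chromosome 19 39 among 234 (16.7%, median -15.4 points). With read totals divided by the CpG count the interferon-related genes gave 4 of 38 (10.5%), under the 16.6% of all promoters, and no protocadherin was called. Interferon-related genes were also under the background within 250 bases of the start (15.2%, beside 21.4%) and with a threshold of 40 points (18.4%, beside 21.7%), where tumour suppressors were above it (23.3%). With read totals so divided PCDHA5 and PCDHGB2 had Fisher adjusted p-values of 0.185 and 0.106. With a threshold of 10 points 47 of 53 protocadherins were called (88.7%) and 167 of 234 zinc finger genes (71.4%), both above the 67.2% of all promoters. PCDHGB2 was not called within 250 bases of the start (-15.4 points), nor PCDHA5 with at least 20 reads (-23.5 points). IFITM1, an antiviral gene, stood at 16.6% and 81.0%, and CDH1, the epithelial cadherin, at 20.4% and 85.8%.

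Relative levels were set side by side for promoters at 60% or more in DMSO, a library outside the comparison, a class chosen after the values were seen. Over all 2528 such promoters the median relative level was 26.4%. Over 13 germline promoters it was 43.5%, from 36.8% at DPPA3 to 53.1% at TDRD9. SYCP3 stood at 47.1% (44.2% to 50.0%) and 94.5% (93.0% to 95.6%), and STK31, a testis kinase gene, at 34.3% and 86.4%. Over 13 imprinted promoters the median was 58.3%, from 15% at AIRN to 66.7% at SNURF. At SNURF the EED inhibitor level lay under the DMSO level that set the class, as given above, which makes the ratio larger. Genes that share a start, such as SNRPN and SNURF, were each counted here. AIRN (13.7% and 91.5%) and GRB10 (24.1% and 89.1%) had the largest differences of the list. The median over 9 zinc finger promoters of chromosome 19 was 48.3%, that over 81 olfactory receptor promoters 25.5%, and that over 10 promoters of other blood lineages 30.9%. Of whole lists, 21 of 24 germline promoters tested were called lower (87.5%) and 13 of 33 imprinted ones (39.4%), beside 41% of all promoters. With read totals divided by the CpG count these were 3 of 24 (12.5%) and 3 of 33 (9.09%), beside 16.6%. Under the other settings the germline share stayed above that of all promoters. Within 250 bases it was 87.0% beside 21.4%, and at 40 points 50% beside 21.7%. With a threshold of 10 points 29 of 33 imprinted promoters were called (87.9%, beside 67.2%), reaching 2000 bases upstream 22 of 35 (62.9%, beside 61.1%), and within 250 bases 6 of 25 (24%, beside 21.4%). These medians describe the lists and were not tested against other promoters.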

How the data were processed

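HUDEP-2 cells gave 4 bisulfite sequencing libraries covering the whole genome, 1 per condition. Per the submitters' processing notes, reads were trimmed with Trim Galore 0.6.7 and cutadapt 4.1, mapped to hg38 with Bismark and Bowtie2 2.1.0 and summarised with methylKit. The authors deposited, for each CpG with both strands merged and at least 10 reads, the coverage as a read count and the methylated share as a percent; bisulfite conversion rates are not given in the sources used here. Methylated reads were rebuilt as coverage times percent, and 100% of the products were whole within a tolerance of 0.05 points.

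Levels are methylated reads over all reads. Fisher's exact tests (numba 0.67.0, tested on simulated data) were adjusted over all CpGs, all windows or all promoters. Genes came from GENCODE release 44. Classes set with DMSO required it to list 90% of a unit's shared CpGs, a rule added after values were seen. The named-gene rule took all members of 4 lists (globins, fetal hemoglobin regulators, DNA methylation, Polycomb), the extremes of the other lists and the most different and most alike promoters and windows. The members and lists were chosen with earlier results of these data known. Alternatives changed the coverage limits, the CpG set, the weighting, the thresholds, the region sizes and the class library. A class by repeat masking was not used here, since the reference carries no mask.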

Additional observations from a re-analysis of the deposited data

How the results depend on the processing

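The genome-wide difference stayed below 0 under each alternative tried. It moved past its counting interval to -43.1 points as an unweighted mean over CpGs, -42.7 with at least 20 reads in both libraries, and -42.5 with at most 100 reads, over CpGs listed in all 4 tables, or without chromosome 18 and chromosome 10 beyond 100 Mb. The relative level at strongly methylated CpGs moved likewise from 31.23% to 31.7% unweighted, 30.8% with classes from the non-differentiated library, 30.7% with at least 20 reads, 31.19% with at most 100, 31.20% over CpGs in all 4 tables and 31.20% without those segments.

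CpGs called higher numbered 253 at an adjusted p under 0.05, 17 at a difference of at least 40 points, 23 with at least 20 reads and 2 with every CpG thinned to 10 reads, when 3935631 were called lower. With a 10 point threshold 1 window was higher and 11993 promoters lower, and with 40 points 3879 promoters lower. Promoters called lower numbered 11125 when reaching 2000 bp upstream, 2662 within 250 bp of the start and 2963 with reads divided by CpGs. Windows of 2000 bp gave 1064528 of 1318377 lower. Alike windows made up 2.93% under a 5 point limit, 6.49% of 500 bp windows, 3.21% of 2000 bp windows, 5.65% with at least 20 reads and 5.64% without those segments.

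The sign turned at 18 named promoter values, none of them called after the change; the cause was not tested. Within 250 bp of the start the difference was 0.60 at KDM1A, 0.65 at MBD2, 0.52 at KLF1, 0.26 at NFIX, 0.88 at TET2, 1.00 at UHRF2, 0.25 at MBD1, 0.0080 at DNMT1, 0.033 at PCGF6, 0.31 at SUZ12, 1.54 at SIX5, 0.32 at STAG3, -0.27 at ZNF580 and 1.06 at ZNF358. With at least 20 reads it was -0.20 at IGF2BP3, 0.81 at MBD1 and 0.24 at RBBP4, and over CpGs in all 4 tables -0.068 at UROS. No paired analysis was possible because each condition has 1 library. With 1 library a side, differences between cultures and the inhibitors' effects cannot be told apart, and at 10 reads a CpG test detects only large differences.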

Other observations

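CpGs with unusually high coverage were not set apart in the comparison. Over 100 reads in either inhibitor library were found at 116112 shared CpGs (0.495%), which stood at 17.6% with the DNMT1 inhibitor against 56.8% with the EED inhibitor. At the 2057 CpGs over 1000 reads the levels were 21.8% and 62.7%, with 65.2% in DMSO.

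The 100 kb bins with the smallest differences lay at chr10:39100001-39200000, with 6.40% and 18.2%, and at chr22:12000001-12100000, with 4.90% and 18.1%. DMSO stood at 20.2% and 19% in these bins. A bin at chr21:8500001-8600000 was at 17.8% and 31.5%, a relative level of 56.6% over 136 CpGs.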
